A study of Mus musculus with 13 samples.

Results

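Mouse embryonic fibroblasts (MEFs) that had received 5-azacytidine (5-aza) held more RNA of several p53 target genes at harvest, 3 days after the drug was removed, whereas cells with a hairpin against Setdb1 showed a mixed pattern in which the cell cycle inhibitor gene Cdkn1a was lower and the stress hormone gene Gdf15 was higher. The genes described are 40 named targets of the transcription factor p53 and genes of the response to DNA damage. They were listed by name, but with earlier results of these data known, as were the other gene lists below. Of the 25965 gene intervals in the table, 39 carried a name on this list. The remaining gene, Pidd1, was matched by its Ensembl identifier only, under its older name Lrdd, and is given apart from the counts.

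p53 is a transcription factor that its partner Mdm2 keeps at a low level by marking it for degradation. Damaged DNA activates kinases that release p53 from Mdm2, and p53 then binds paired copies of a short DNA element near its targets, which stop the cell cycle, repair DNA or start cell death. Mdm2 is itself a target, so the response limits itself. Azacytidine is built into nucleic acids and traps DNA methyltransferases on DNA, which lowers DNA methylation and is known to leave protein-DNA adducts. Setdb1 is a methyltransferase that places methyl groups on lysine 9 of histone H3.

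The 12 libraries compared combine a hairpin (control or against Setdb1) with the presence or absence of 5-aza, which gives 4 groups of 3 libraries. Replicates A and B carried a non-silencing hairpin in the control groups and shSetdb1.4 in the Setdb1 groups, and replicate 1 carried a hairpin against Luciferase or shSetdb1.6. Per the study's methods, all cells were primary female MEFs of embryonic day E13.5 with an XistΔA allele on a Mus musculus domesticus 129/C57 X chromosome and a PGK X chromosome, which is then the inactive one. The labels name a cell line as their source. All cells were transduced with retrovirus and selected with puromycin from 24 h, 5-aza was present for 24 h from day 3, and RNA was taken on day 7. Setdb1 hairpins were given to cells with a Setdb1 gene-trap allele (Setdb1 +/gt) and the non-silencing hairpin to Setdb1 +/+ cells, while the genotype of the cells with the Luciferase hairpin is not stated. Hairpin and genotype therefore cannot be told apart. The labels do not say whether replicates were separate cultures or embryos, so p-values measure the spread between these libraries, which may be technical. Whether fewer cells of a kind or less RNA per cell lay behind a lower level cannot be told apart in bulk RNA.

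The sequences below show where copies of the p53 element lie near the annotated starts of 7 of the genes, with 250 bases before and 50 bases after each start searched on both strands. Capitals mark exact matches to the 10-base p53 half-site, or both parts of a pair in which 2 half-sites are separated by at most 2 bases and differ from the motif at no more than 2 positions in all. The sequences are from RefSeq on GRCm38.p6 and read along the strand of the gene. The window of Cdkn1a, at chr17:29090729-29091028 on the plus strand, is shown whole because it held a further half-site, from 73 bases before the start, and a pair with 1 mismatch and no spacer, from 51 bases before it.

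Cdkn1a: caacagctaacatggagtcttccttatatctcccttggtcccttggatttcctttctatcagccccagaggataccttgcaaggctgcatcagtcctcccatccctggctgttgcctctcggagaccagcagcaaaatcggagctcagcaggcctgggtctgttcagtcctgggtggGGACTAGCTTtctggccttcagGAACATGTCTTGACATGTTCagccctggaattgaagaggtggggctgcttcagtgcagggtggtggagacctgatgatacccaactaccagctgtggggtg

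Stretches of 60 bases are shown for the remaining members with a pair, Bax (chr7:45467059-45467118, minus strand) and Ckap2 (chr8:22185983-22186042, minus strand), with 2 mismatches each. The pair began 201 bases before the start in Bax, with a spacer of 1 base, and 203 bases before it in Ckap2. The other 4 stretches hold a single half-site in members that rose with 5-aza: Mdm2 (chr10:117710910-117710969, minus strand), Ccng1 (chr11:40755437-40755496, minus strand), Ddit4l (chr3:137623557-137623616, plus strand) and Ei24 (chr9:36797310-36797369, minus strand).
Bax: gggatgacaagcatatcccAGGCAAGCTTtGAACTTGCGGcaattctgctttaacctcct
Ckap2: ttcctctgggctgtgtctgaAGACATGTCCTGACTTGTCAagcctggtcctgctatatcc
Mdm2: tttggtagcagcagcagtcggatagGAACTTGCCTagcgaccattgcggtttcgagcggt
Ccng1: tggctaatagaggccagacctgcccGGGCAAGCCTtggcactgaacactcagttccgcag
Ddit4l: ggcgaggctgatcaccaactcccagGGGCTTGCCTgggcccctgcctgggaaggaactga
Ei24: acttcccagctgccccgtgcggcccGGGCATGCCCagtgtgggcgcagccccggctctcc

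A promoter window was given for 31 of the 39 members, and 12 of these (38.7%) held an exact half-site, beside 9.55% of the windows of all 27025 genes. A pair was present in 3 members (9.68%), beside 0.518% of all genes. Among members with a window, a half-site was present in 6 of the 15 called with 5-aza in either kind of cell (40%) and in 6 of the 16 not called (37.5%). A match describes letters in a window and is not a measured binding site.

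Levels are given as RPM, the reads of a gene for every 1 M reads of the library as the authors scaled them, and fold changes are on the log2 RPM scale with the standard error (SE) of a fit by limma over 13134 genes. A gene is called changed at a Benjamini-Hochberg adjusted p under 0.05 over all these genes. Between 36.4 and 51.3 M reads lay in genes in these 12 libraries, and 1 read was worth 0.017 to 0.0239 RPM. All 39 members passed the filter of 1 RPM in 3 libraries, with between 198 reads for a member in a library (Gdf15) and 84212 reads (Ccng1). Setdb1 was at 46.2 to 46.4 RPM in the control hairpin libraries, 42.7 to 44.0 RPM with 5-aza, 12.1 to 15.4 RPM in the Setdb1 hairpin libraries and 10.4 to 14.5 RPM in those with 5-aza. It was thus lower in every library that carried a hairpin against it (log2 fold change -1.73, SE 0.11, without 5-aza, adjusted p = 1.52e-06 with limma). Of the 11 fibroblast markers, 10 were at 1 RPM or more in every library. Of the 8 macrophage markers listed, Ptprc, Emr1, Tyrobp and Fcer1g were under 0.5 RPM in all of them, and the summed level, of which Csf1r gave 71.4%, was 10.1 to 10.9 RPM in control libraries, 12.3 to 14.5 RPM with 5-aza, 9.97 to 10.5 RPM with the Setdb1 hairpin and 12.96 to 13.36 RPM with both. The 6 endothelial markers, with Pecam1 and Tie1 under 0.5 RPM, summed to 7.05 to 8.2, 4.22 to 6.28, 6.21 to 6.68 and 4.44 to 5.97 RPM in the same order, and 3 of the 6 epithelial markers, Epcam, Cdh1 and Krt14, were under 0.5 RPM. The macrophage sum was thus higher and the endothelial sum lower in every library with 5-aza than in those without it of the same hairpin. The 5 skeletal muscle markers, of which Acta1 gave 90.6%, summed to 190.8 to 204.5, 219.1 to 250.2, 206.8 to 236.2 and 235.8 to 256.6 RPM. The 5 neural markers, of which Tubb3 gave 97.1%, summed to 45.6 to 47.9, 40.3 to 52.1, 59.6 to 69.3 and 47.2 to 63.3 RPM, both in the same order. The part of these cell types in the levels of the members was not tested.

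In untreated control cells the members spanned a wide range of levels per length of transcript. Ccng1, which encodes cyclin G1, was the highest at 385 ± 16.2 RPKM (RPM per kilobase of exon, mean ± SD, n = 3), followed by Cdkn1a, which encodes the cell cycle inhibitor p21, at 207 ± 12.2 RPKM. The xenobiotic epoxide hydrolase gene Ephx1 stood at 121 ± 12.8 RPKM, Phlda3, an inhibitor of Akt signalling, at 86.6 ± 9.25 RPKM, Plk2, a Polo-like kinase, at 66.6 ± 10.4 RPKM and Mdm2 at 54.7 ± 5.33 RPKM. The spread of Plk2 reached that of Mdm2, whereas the first 4 genes were separated by more than their SDs. Trp53, which encodes p53, was at 27.3 ± 0.232 RPKM. The lowest members were Sesn1 at 1.69 ± 0.0647 RPKM and Rrm2b at 1.73 ± 0.1 RPKM, which did not differ beyond their spread.

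**Figure D1:**
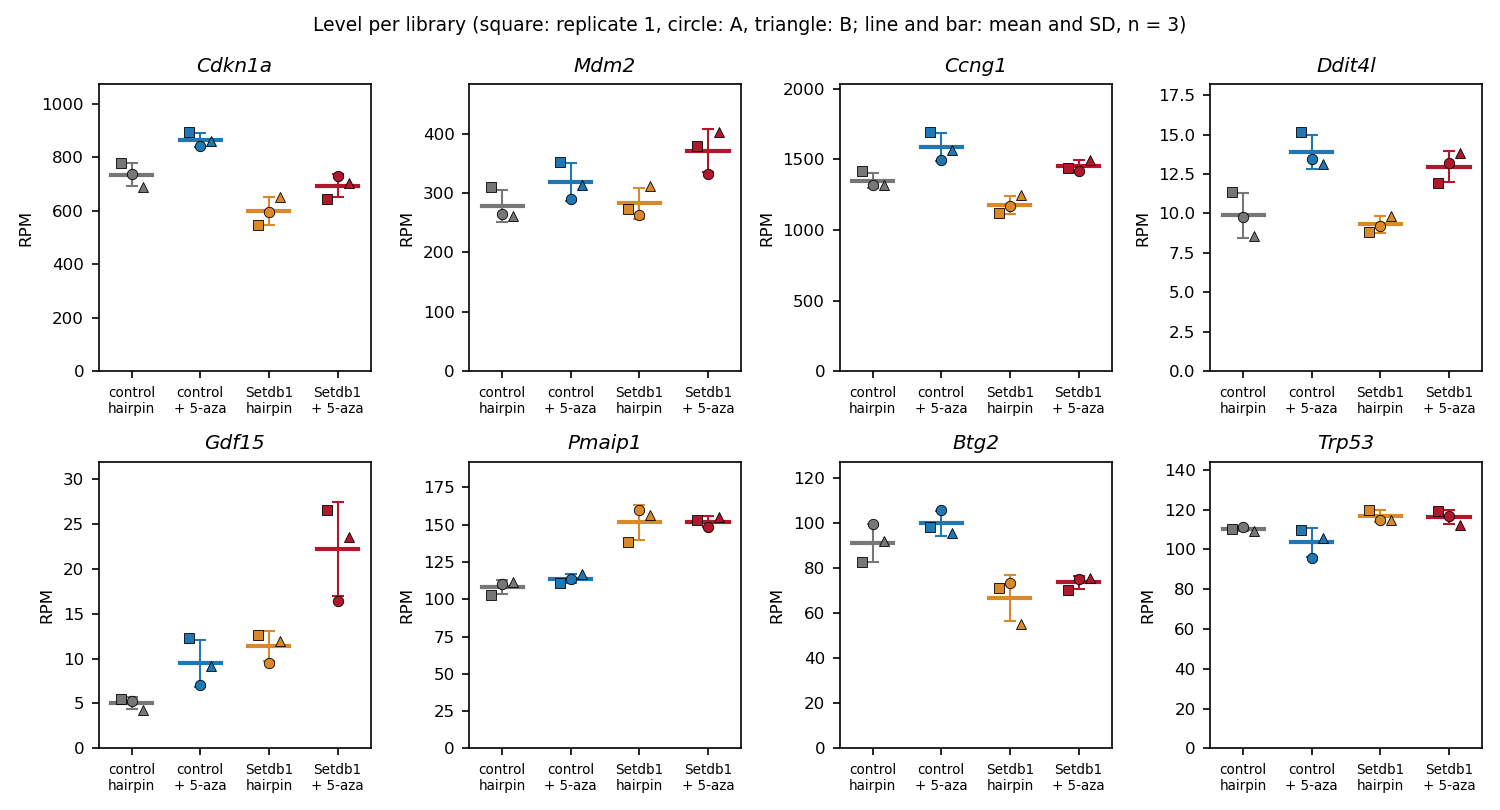
Level of 8 members in RPM (vertical axes, from 0) in each library of the 4 groups, with squares for replicate 1, circles for A, triangles for B and the mean and SD of 3 libraries. Cdkn1a is higher with 5-aza and lower with the Setdb1 hairpin, Gdf15 rises with each, and Pmaip1 and Btg2 separate by hairpin only.

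The first question was whether a damage response was visible after 5-aza in cells with the control hairpin. Of the 39 members, 9 were called higher and 0 lower. Over all genes tested, 13.47% were called higher and 5.34% lower. The log2 fold change was above 0 for 35 of the 39 members, beside 61.2% of all genes, with a median of 0.14 beside 0.04. In 13 members all 3 libraries with 5-aza lay above all 3 without, and in 0 they lay below, beside 24.9% and 12.7% of all genes. The changes were small: the highest, of Gdf15, was 1.85-fold, and the next, of Ddit4l, was 1.41-fold.

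Among the regulators and cell cycle genes, Cdkn1a was at 777, 736 and 690.0 RPM in control libraries 1, A and B and at 893, 840.3 and 861 RPM with 5-aza. Every library with 5-aza lay above every library without, with a limma log2 fold change of 0.24 (SE 0.07, adjusted p = 0.0304). Ccng1 was at 1416, 1320.0 and 1317 RPM without and 1693, 1499 and 1568 RPM with the drug. The groups again did not overlap (limma log2 fold change 0.23, SE 0.06, adjusted p = 0.0159). Trp53inp1, a nuclear protein that promotes p53 activity, was at 141, 124 and 122 RPM without and 164, 166 and 149 RPM with 5-aza (limma log2 fold change 0.31, SE 0.10, adjusted p = 0.0436). The antiproliferative gene Tob1 and the spindle gene Psrc1 were also called higher, by 0.27 (SE 0.06) and 0.18 (SE 0.05) on the log2 scale. Mdm2 was at 309, 264 and 261 RPM without and 353, 289 and 313 RPM with 5-aza. Its groups overlapped, although each library with 5-aza exceeded the untreated one of the same hairpin and letter (limma log2 fold change 0.19, SE 0.10, adjusted p = 0.179). Trp53 itself was at 110.4, 111 and 109 RPM without and 109.6, 95.5 and 106 RPM with the drug, and the log2 fold change of -0.09 (SE 0.05) did not pass the test.

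Gdf15, a secreted stress hormone, had the largest change. It was at 5.53, 5.27 and 4.27 RPM in control libraries 1, A and B and at 12.2, 7.04 and 9.16 RPM with 5-aza (limma log2 fold change 0.89, SE 0.21, adjusted p = 0.0134). Its groups did not overlap, but the treated libraries were spread widely, with an SD of 2.62 RPM about a mean of 9.48 RPM. Ddit4l, an inhibitor of mTOR signalling, was at 11.4, 9.76 and 8.54 RPM without and 15.2, 13.48 and 13.1 RPM with the drug, again without overlap (limma log2 fold change 0.50, SE 0.10, adjusted p = 0.00558). Its relative Ddit4 (log2 fold change 0.24, SE 0.16) and the sestrin genes Sesn1 and Sesn2 did not pass.

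The sugar reductase gene Dcxr was at 14.8, 13.1 and 11.0 RPM without and 17.3, 17.1 and 17.6 RPM with 5-aza (limma log2 fold change 0.43, SE 0.10, adjusted p = 0.0133). Ephx1 was at 264, 227 and 216 RPM without and 310.3, 281 and 286 RPM with the drug (limma log2 fold change 0.31, SE 0.08, adjusted p = 0.0191). In both genes the groups were fully separated.

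None of the cell death genes among the 39 members passed in the control cells. The pore-forming protein gene Bax came closest, at 51.7, 50.2 and 46.7 RPM without and 60.7, 53.01 and 56.9 RPM with 5-aza (limma log2 fold change 0.20, SE 0.07, adjusted p = 0.0572). Its groups did not overlap. Bbc3, which encodes the BH3-only protein Puma, had a log2 fold change of 0.24 (SE 0.11, adjusted p = 0.139 with limma), and Pmaip1, which encodes the BH3-only protein Noxa, of 0.08 (SE 0.05). The death receptor genes Fas and Tnfrsf10b, the apoptosome gene Apaf1 and the tetraspan gene Perp had log2 fold changes of 0.08, 0.13, 0.01 and 0.37, and Perp had the highest SE, 0.30. The repair genes were likewise not called: Xpc and Ddb2 of damage recognition in nucleotide excision repair were at 0.00 and 0.09, the nuclease gene Ercc5 at 0.11, the polymerase gene Polk at 0.05 and Rrm2b, a ribonucleotide reductase subunit, at 0.14 on the log2 scale. Phlda3 (0.14, SE 0.08) and Zmat3, an RNA-binding zinc finger protein gene (0.07, SE 0.05), also did not pass. Phlda3 was at 151, 132 and 123 RPM without and 165, 138 and 143 RPM with 5-aza, and Zmat3 at 146, 132 and 134 RPM without and 139, 153 and 141 RPM with it, so the groups of both overlapped.

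The count of 9 depended on single libraries. Shares of all genes called are given for the fit described above only. Counts from other fits, here and below, have no such share beside them. Whether the calls over all genes rose or fell alike was not examined. It was 5 without control hairpin replicate A, 2 without control hairpin replicate B (Ddit4l and Tob1) and 4 without control hairpin with 5-aza replicate 1 (Gdf15, Dcxr, Tob1 and Ddit4l). The call of Cdkn1a was lost without any 1 of these 3 libraries or control hairpin with 5-aza replicate B, with a log2 fold change of at least 0.19 when any 1 library was left out. Ccng1 and Ephx1 lost theirs without any 1 of these 3 libraries, Gdf15 and Dcxr without control hairpin replicate B only, Trp53inp1 without any library except control hairpin replicate 1, and Psrc1 without any except control hairpin replicate A. With replicates A and B only, 6 members were called, and Ccng1, Gdf15 and Psrc1 lost their calls. Centring each library on its median, in place of the deposited scale, gave 6 members higher and 1 lower, Trp53. Cdkn1a, Trp53inp1 and Psrc1 lost their calls there. Without the filter on RPM 6 members were called, and Cdkn1a, Ccng1 and Trp53inp1 lost theirs.

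**Figure D2:**
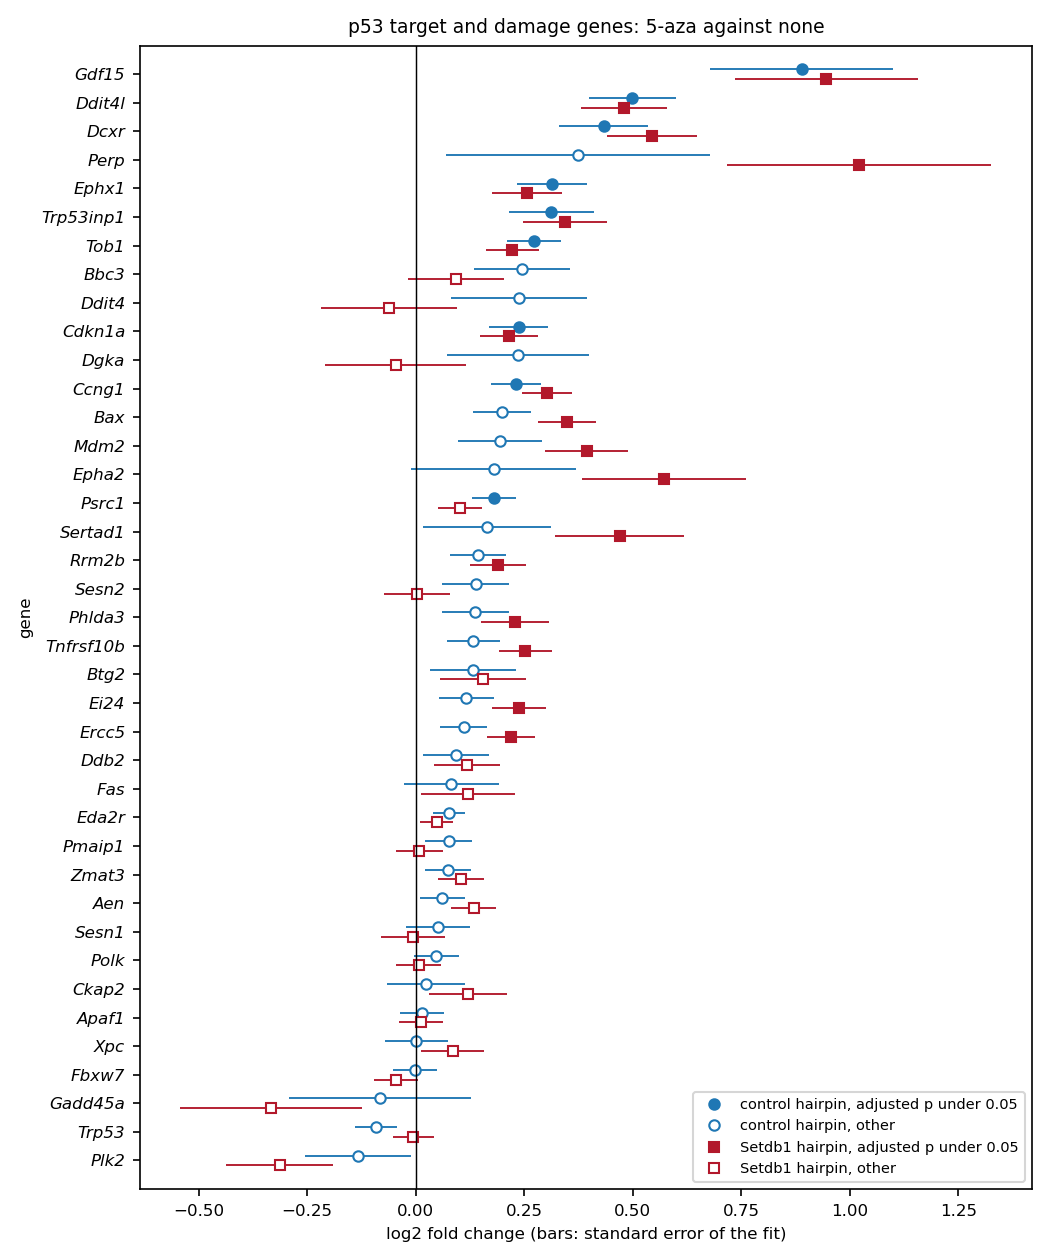
Log2 fold change with 5-aza (horizontal axis, bars show the SE of the fit) of the 39 members in control hairpin cells (blue circles) and Setdb1 hairpin cells (red squares), filled where the adjusted p was under 0.05. Most points lie to the right of 0 in both kinds of cell, and Plk2, Trp53, Gadd45a and Fbxw7 lie at or left of it in both.

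The same question was asked in cells with the Setdb1 hairpin. Of the 39 members, 18 were called higher and 0 lower with 5-aza, beside 21.4% of all genes higher and 7.51% lower. The log2 fold change was above 0 for 32 members, beside 62.9% of all genes, and the median was 0.13 beside 0.06. In 18 members the treated libraries all lay above the untreated ones and in 1, Plk2, all below, beside 31.2% and 12.2% of all genes.

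Perp had the highest rise among the members. It was at 6.34, 6.19 and 10.1 RPM in Setdb1 hairpin libraries 1, A and B and at 14.5, 12.5 and 18.4 RPM with 5-aza (limma log2 fold change 1.02, SE 0.30, adjusted p = 0.0269). The groups did not overlap. Perp is also a gene of epithelial junctions, and the summed level of the 6 epithelial markers, of which Krt18 gave 89.6%, was 2.74 to 3.27 RPM in the control libraries, 9.26 to 11.2 RPM with 5-aza, 9.68 to 10.6 RPM with the Setdb1 hairpin and 21.04 to 23.65 RPM with both. The part of this in the level of Perp was not tested. Gdf15 was at 12.7, 9.47 and 12 RPM without and 26.6, 16.4 and 23.6 RPM with the drug (limma log2 fold change 0.95, SE 0.21, adjusted p = 0.00743), without overlap.

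Epha2, an ephrin receptor tyrosine kinase gene, was at 99.8, 77.1 and 100.2 RPM without and 158, 106 and 151 RPM with 5-aza (limma log2 fold change 0.57, SE 0.19, adjusted p = 0.0408). Dcxr was at 9.71, 10.0 and 11.6 RPM without and 14.1, 16.7 and 14.9 RPM with the drug (limma log2 fold change 0.54, SE 0.10, adjusted p = 0.00324). Ddit4l was at 8.83, 9.22 and 9.86 RPM without and 11.9, 13.2 and 13.8 RPM with it (limma log2 fold change 0.48, SE 0.10, adjusted p = 0.0053). In all 3 genes every treated library exceeded every untreated one.

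Of the regulators, Cdkn1a, Mdm2, Ccng1 and Phlda3 were called higher, and Zmat3 and Trp53 were not. Cdkn1a was at 547, 596 and 650.2 RPM in Setdb1 hairpin libraries 1, A and B and at 645, 730.4 and 703 RPM with 5-aza (limma log2 fold change 0.21, SE 0.07, adjusted p = 0.0336). Here the groups overlapped by a few RPM, since treated replicate 1 lay below untreated replicate B. Mdm2 was at 273, 263 and 312 RPM without and 379.7, 332 and 402 RPM with the drug, without overlap (limma log2 fold change 0.39, SE 0.10, adjusted p = 0.0114). Ccng1 was at 1118, 1167 and 1247 RPM without and 1440.0, 1415 and 1499 RPM with it (limma log2 fold change 0.30, SE 0.06, adjusted p = 0.00321). Phlda3 was at 124, 115 and 125 RPM without and 142, 139 and 146 RPM with it (limma log2 fold change 0.23, SE 0.08, adjusted p = 0.0447). Both genes were separated between the groups. Zmat3, at 135, 141 and 130.3 RPM without and 139.5, 152 and 146 RPM with 5-aza, overlapped and did not pass (log2 fold change 0.11, SE 0.05). Trp53 was at 120.1, 115 and 115 RPM without and 119.5, 117 and 112 RPM with it, a log2 fold change of -0.01 (SE 0.05), so higher levels of p53 targets were measured with no change in Trp53 RNA that passed the test.

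Cell death genes were among the calls in these cells. Bax was at 54.6, 46.6 and 47.8 RPM without and 64.5, 63.9 and 60.8 RPM with 5-aza, without overlap (limma log2 fold change 0.35, SE 0.07, adjusted p = 0.0035). Tnfrsf10b, a receptor for the death ligand Trail, and Ei24, a membrane protein gene of the endoplasmic reticulum, were called higher by 0.25 (SE 0.06) and 0.24 (SE 0.06). Bbc3, Pmaip1, Fas and Apaf1 were not called, with log2 fold changes of 0.09, 0.01, 0.12 and 0.01. Of the repair genes Ercc5 (0.22, SE 0.05) and Rrm2b (0.19, SE 0.07) were called, and Xpc, Ddb2 and Polk (0.08, 0.12 and 0.01) were not. Trp53inp1, Tob1, Ephx1 and the transcriptional cofactor gene Sertad1 were called with log2 fold changes of 0.34, 0.22, 0.26 and 0.47.

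Libraries with the same hairpin and letter deviated together in the Setdb1 groups. A fit of all 12 libraries with such pairs as a block also blocked the pairs of the control groups. In it the exonuclease gene Aen was also called higher (log2 fold change 0.13, adjusted p = 0.0163 with limma), and Plk2 (-0.31, adjusted p = 0.000536) and the growth arrest gene Gadd45a (-0.33, adjusted p = 0.00551) were called lower with limma. Without the block their adjusted p-values were 0.073, 0.0746 and 0.248 with limma. Plk2 was at 314, 389 and 303 RPM in Setdb1 hairpin libraries 1, A and B and at 261, 289 and 256 RPM with 5-aza. Gadd45a was at 12.6, 18.3 and 12.2 RPM without and 10.4, 13.7 and 9.86 RPM with the drug.

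The count of 18 was 10 without Setdb1 hairpin replicate 1, 9 without Setdb1 hairpin replicate A and 6 without Setdb1 hairpin with 5-aza replicate B. Those 6 were Ccng1, Bax, Gdf15, Tnfrsf10b, Dcxr and Ddit4l, which were also called in every other alternative run. Cdkn1a lost its call without Setdb1 hairpin replicate 1 or A, or Setdb1 hairpin with 5-aza replicate A or B, and Mdm2 without Setdb1 hairpin with 5-aza replicate B. Perp lost it without either replicate 1, Setdb1 hairpin replicate A or Setdb1 hairpin with 5-aza replicate B, Epha2 without any library except Setdb1 hairpin with 5-aza replicate A, and Phlda3 without any 1 library. Centring on the median gave 11, and 12 were called without the filter on RPM or with replicates A and B only. Cdkn1a lost its call in each of these fits, and Mdm2 with replicates A and B only.

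The sets of calls in the control and the Setdb1 hairpin cells come from separate libraries but from 1 fit. That fit uses the same estimate of a gene's spread in both, so the sets are not independent. They shared 8 genes: Cdkn1a, Ccng1, Trp53inp1, Gdf15, Dcxr, Tob1, Ddit4l and Ephx1. These were 88.9% of the calls in control cells and 44.4% of those in Setdb1 hairpin cells, beside 69.65% and 45.4% for the calls over all genes. Across the 39 members the log2 fold changes of both comparisons had a Pearson r of 0.78, beside 0.755 across all genes, and 36 of 39 had the same sign. Genes are not independent replicates, and these are descriptions. When each library with 5-aza was set against the untreated one with the same hairpin and letter, 17 of the 39 members were higher in all 6 pairs, beside 27.7% of all genes, and 1, Plk2, was lower in all 6, beside 12.1%. Pidd1, which encodes a death domain adaptor of p53 signalling, was also higher in all 6 pairs, with log2 fold changes of 0.36 (SE 0.09, adjusted p = 0.0132 with limma) in control cells and 0.50 (SE 0.09, adjusted p = 0.00203 with limma) in Setdb1 hairpin cells.

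Although 10 members were called in the Setdb1 hairpin cells and not in the control cells, the test of the difference itself found none. In the interaction of hairpin and 5-aza, 0 of the 39 members passed with limma, 0 had an unadjusted p under 0.05, and voom on recovered reads also called 0, beside 0.388% of all genes at the adjusted and 5.34% at the unadjusted threshold. Perp had the highest interaction, at 0.65 (SE 0.43, adjusted p = 0.794 with limma), followed by Epha2 at 0.39 (SE 0.27) and Sertad1 at 0.31 (SE 0.21). For Cdkn1a it was -0.02 (SE 0.10) and for Gdf15 0.06 (SE 0.30), on the log2 scale.

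The second question was whether the Setdb1 hairpin was accompanied by a change in these genes without the drug. Of the 39 members, 3 were called higher and 3 lower, beside 9.01% of all genes higher and 3.4% lower. Log2 fold changes were above 0 in 16 members, beside 60.1% of all genes, and the median was -0.05 beside 0.03. The groups did not overlap in 5 members that were higher and 7 that were lower, beside 24.0% and 10.4% of all genes. The calls thus went both ways, unlike those with 5-aza, with 7.69% of the members called in each direction. Members above 0 made up 41.0%, fewer than over all genes. Those without overlap were 12.8% higher and 17.9% lower, so relative to all genes the members lay toward lower levels.

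Gdf15, Pmaip1 and Ckap2 were higher. Gdf15 was at 5.53, 5.27 and 4.27 RPM with the control hairpin and 12.7, 9.47 and 12 RPM with the Setdb1 hairpin, in replicates 1, A and B (limma log2 fold change 1.18, SE 0.21, adjusted p = 0.00405). Pmaip1 was at 103, 109.9 and 112 RPM against 138, 160.2 and 156 RPM (limma log2 fold change 0.49, SE 0.05, adjusted p = 0.000157). Ckap2, a mitotic spindle gene, was at 39.7, 40.3 and 41.8 RPM against 57.6, 48.8 and 51.9 RPM (limma log2 fold change 0.37, SE 0.09, adjusted p = 0.0194). In each of them all libraries with the Setdb1 hairpin lay above all control libraries.

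Btg2, Cdkn1a and Ccng1 were lower. Btg2, an antiproliferative gene, was at 82.6, 99.4 and 92.0 RPM with the control hairpin and 71.3, 73.5 and 55.0 RPM with the Setdb1 hairpin (limma log2 fold change -0.46, SE 0.10, adjusted p = 0.0112). Cdkn1a was at 777, 736 and 690.0 RPM against 547, 596 and 650.2 RPM (limma log2 fold change -0.30, SE 0.07, adjusted p = 0.0147), and Ccng1 at 1416, 1320.0 and 1317 RPM against 1118, 1167 and 1247 RPM (limma log2 fold change -0.20, SE 0.06, adjusted p = 0.0413). The groups did not overlap in any of these genes. Fas (-0.32, SE 0.11, adjusted p = 0.0736), Trp53inp1 (-0.26, SE 0.10, adjusted p = 0.107) and Ei24 (-0.18, SE 0.06, adjusted p = 0.0851) did not pass with limma, although their groups did not overlap. Mdm2 (0.02, SE 0.10), Bax (0.00, SE 0.07), Zmat3 (-0.02, SE 0.05), Phlda3 (-0.15, SE 0.08) and Trp53 (0.08, SE 0.05) did not pass either, and their values by library are those given above.

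Without control hairpin replicate 1, or without Setdb1 hairpin replicate 1, 3 members were called: Pmaip1, Gdf15 and Btg2. The same 3 were called with replicates A and B only. Cdkn1a, Ccng1 and Ckap2 lost their calls in each of these fits, Ccng1 also without any other 1 library except Setdb1 hairpin replicate B, and Ckap2 also without control hairpin replicate A. Centring on the median gave 3 higher and 6 lower, and quantile normalization 3 higher and 5 lower, with Fas, Ei24 and Dcxr added to the lower genes in both.

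**Figure D3:**
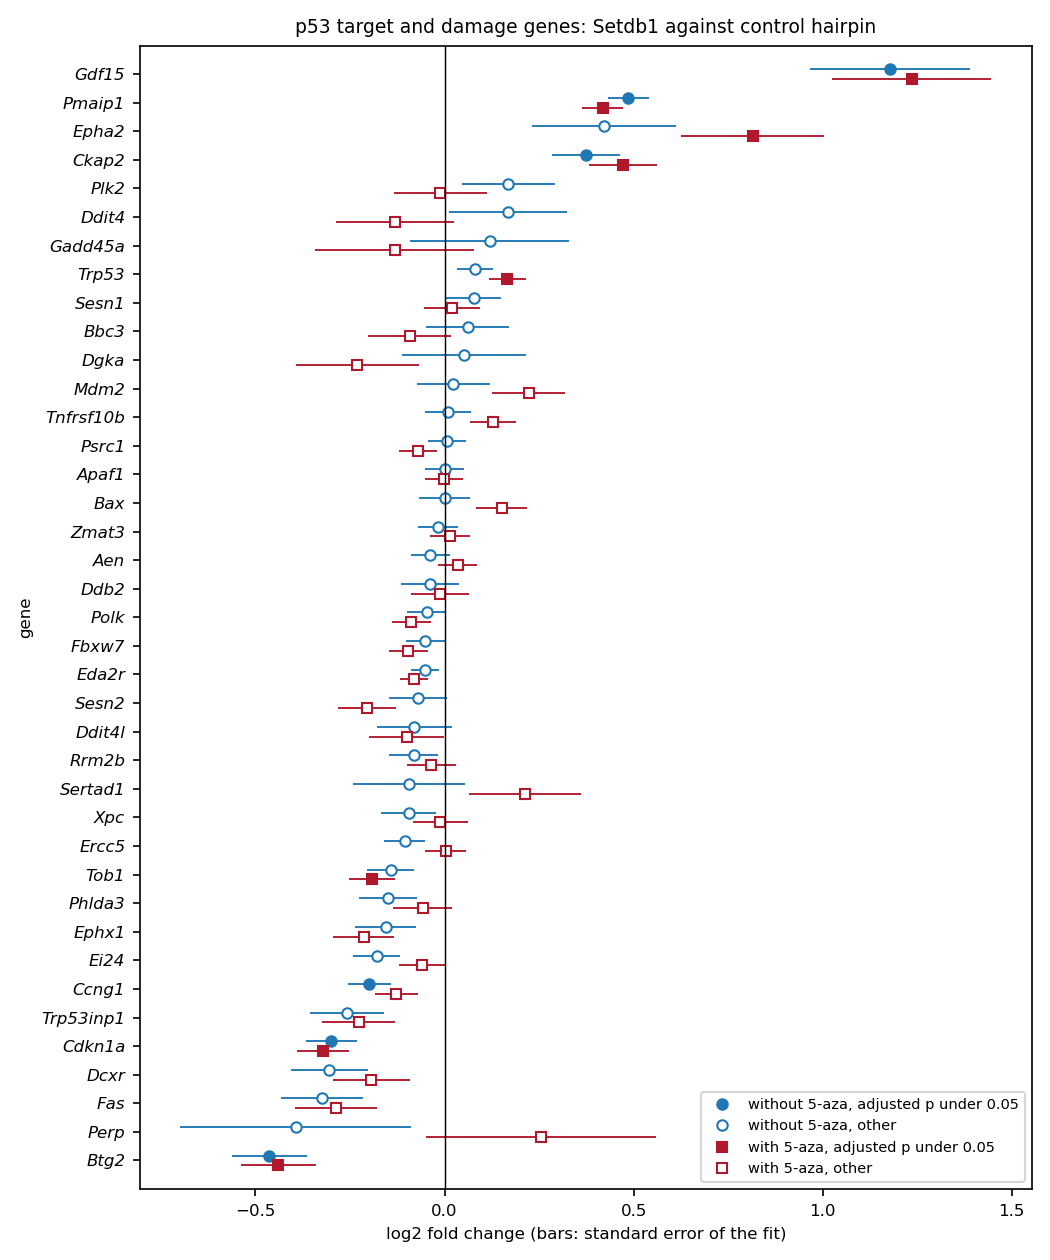
Log2 fold change of the Setdb1 hairpin against the control hairpin (horizontal axis, bars show the SE of the fit) of the 39 members without 5-aza (blue circles) and with it (red squares), filled where the adjusted p was under 0.05. Gdf15, Epha2, Pmaip1 and Ckap2 stand to the right and Btg2, Cdkn1a and Fas to the left, with most members near 0. Without 5-aza, Perp and Dcxr also stand to the left.

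With 5-aza in both groups, 5 members were called higher and 3 lower with the Setdb1 hairpin, beside 14.5% and 5.37% of all genes. The log2 fold change was above 0 in 14 members, beside 63.3% of all genes, and the median was -0.06 beside 0.05. The groups did not overlap in 6 members that were higher and 10 that were lower, beside 24.6% and 10.0% of all genes.

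Gdf15 was at 12.2, 7.04 and 9.16 RPM with the control hairpin and 26.6, 16.4 and 23.6 RPM with the Setdb1 hairpin (limma log2 fold change 1.24, SE 0.21, adjusted p = 0.00216). Epha2 was at 101, 59.8 and 77.5 RPM against 158, 106 and 151 RPM (limma log2 fold change 0.81, SE 0.19, adjusted p = 0.0116), Ckap2 at 46.6, 36.4 and 41.5 RPM against 62.3, 52.2 and 57.7 RPM (limma log2 fold change 0.47, SE 0.09, adjusted p = 0.00411) and Pmaip1 at 111, 114 and 117 RPM against 153, 148 and 155 RPM (limma log2 fold change 0.42, SE 0.05, adjusted p = 0.000398). Btg2 was at 98.3, 106 and 95.4 RPM against 70.2, 75.1 and 75.6 RPM (limma log2 fold change -0.44, SE 0.10, adjusted p = 0.00996). All 5 genes were separated between the groups.

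Cdkn1a was lower here too, at 893, 840.3 and 861 RPM with the control hairpin and 645, 730.4 and 703 RPM with the Setdb1 hairpin (limma log2 fold change -0.32, SE 0.07, adjusted p = 0.00718). Tob1 was called lower by -0.19 (SE 0.06, adjusted p = 0.0457) and Trp53 higher by 0.17 (SE 0.05, adjusted p = 0.0313) with limma. Trp53 was at 109.6, 95.5 and 106 RPM against 119.5, 117 and 112 RPM, without overlap. Ccng1 (-0.13, SE 0.06), Mdm2 (0.22, SE 0.10), Bax (0.15, SE 0.07), Phlda3 (-0.06, SE 0.08) and Zmat3 (0.01, SE 0.05) did not pass. Btg2, Cdkn1a, Ckap2, Gdf15 and Pmaip1 were called with the same sign in both hairpin comparisons, 5 of the 6 calls without 5-aza (83.3%) and of the 8 with it (62.5%), beside 70.25% and 43.9% for all genes.

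The count of 8 was 5 without Setdb1 hairpin with 5-aza replicate 1, and also 5 with replicates A and B only. Epha2 lost its call without Setdb1 hairpin with 5-aza replicate 1 or B. Tob1 lost it without 5 of the 6 libraries, replicate A of the Setdb1 hairpin with 5-aza being the exception. Trp53 lost it without replicate A or B of the control hairpin with 5-aza, or replicate 1 or A of the Setdb1 hairpin with 5-aza. Centring on the median gave 4 higher and 8 lower and quantile normalization 5 higher and 5 lower, with Fas and Eda2r, an ectodysplasin receptor gene, added to the lower genes in both.

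The apoptosome gene Apaf1, the ubiquitin ligase gene Fbxw7, Sesn1, Sesn2, Polk, Xpc, Ddb2, the kinase gene Dgka, Ddit4 and Eda2r were called in 0 of the 4 comparisons on the deposited scale. Their log2 fold changes ran from -0.23 (Dgka, SE 0.16, hairpin with 5-aza) to 0.24 (Ddit4, SE 0.16, 5-aza in control cells). Among them Apaf1 had log2 fold changes between -0.0017 and 0.01 in all 4, and the control libraries held 51.0 to 54.3 RPM of it. The groups overlapped for Sesn1, Xpc, Ddb2, Ddit4 and Dgka in every comparison. Bbc3, Fas, Zmat3, Aen, Plk2 and Gadd45a were also called in 0 of the 4 comparisons. The log2 fold changes of these further genes ran from -0.33 (Gadd45a, SE 0.21, 5-aza in Setdb1 hairpin cells) to 0.24 (Bbc3, SE 0.11, 5-aza in control cells).

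Genes of related programmes, none of them members, were counted in the same fit. Of 33 tested further p53 targets, 12 were called higher and 0 lower with 5-aza in control cells (median 0.20) and 18 higher and 2 lower in Setdb1 hairpin cells (median 0.23). The higher calls were 36.4% and 54.5% of these genes, beside 13.47% and 21.4% of all genes. Steap3, a ferrireductase gene, had the largest rise in control cells and was at 2.89 ± 0.0571 RPM without and 6.08 ± 0.273 RPM with the drug (log2 fold change 1.07, SE 0.06), and the actin regulator gene Cyfip2 followed at 0.54 (SE 0.11). In Setdb1 hairpin cells the largest were Kitl, the ligand of Kit, at 0.84 (SE 0.14) and Trp53i11 at 0.81 (SE 0.11), and the lowest were Sfn, which encodes 14-3-3 sigma, at -0.44 (SE 0.08) and the receptor gene Notch1 at -0.38 (SE 0.12). The count of 20 in Setdb1 hairpin cells was 13 without Setdb1 hairpin replicate A or Setdb1 hairpin with 5-aza replicate B. With the Setdb1 hairpin 2 of these targets were higher and 2 lower without 5-aza, and 5 were higher and 1 lower with it. The higher calls were 6.06% and 15.2% of these targets, beside 9.01% and 14.5% of all genes, and the lower calls 6.06% and 3.03%, beside 3.4% and 5.37%. The 4 calls without 5-aza became 2 without either replicate 1, and the 6 with it became 3 without Setdb1 hairpin with 5-aza replicate 1 or B and 10 without control hairpin with 5-aza replicate 1 or Setdb1 hairpin with 5-aza replicate A. Sfn was at 5.6 ± 0.14 RPM with the control and 16.4 ± 1.21 RPM with the Setdb1 hairpin (log2 fold change 1.55, SE 0.08).

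The 16 genes that p21 is known to lower through the DREAM repressor complex had medians opposite in sign to the change of Cdkn1a in each comparison. With 5-aza, Cdkn1a changed by 0.24 in control and 0.21 in Setdb1 hairpin cells, beside medians of -0.39 and -0.15. Whether p21 had a part in the levels of these genes was not tested. With 5-aza in control cells 12 were called lower and 0 higher (median -0.39), led by the proliferation marker Mki67 at -0.64 (SE 0.08) and the mitotic kinase gene Plk1 at -0.57 (SE 0.09). In Setdb1 hairpin cells 2 were called lower with 5-aza (median -0.15), again Mki67 and Plk1. With the pairs as a block 4 were lower and 1 higher, and without 1 library at a time 1 to 4 were lower. With the Setdb1 hairpin 11 were higher without 5-aza (median 0.42), with Plk1 at 0.50 (SE 0.09) and the cyclin gene Ccnb1 at 0.47 (SE 0.11), and all 16 were higher with it (median 0.68). The lower calls with 5-aza were 75% and 12.5% of the list, beside 5.34% and 7.51% of all genes, and the higher calls with the Setdb1 hairpin 68.8% and 100%, beside 9.01% and 14.5%. Of these 16 genes 0 were called in the interaction, although its log2 values ran from 0.16 (Top2a) to 0.61 (Rrm2), with a median of 0.26 beside 0.02 for all genes. The 12 became 3 to 6 without control hairpin replicate A or B or control hairpin with 5-aza replicate A or B, and the 11 became 5 without control hairpin replicate 1, 7 without control hairpin replicate A or Setdb1 hairpin replicate B, 3 without Setdb1 hairpin replicate 1 and 2 with replicates A and B only. These genes mark dividing cells, and their part in the lower Cdkn1a and higher Ckap2 was not tested.

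Sensors, kinases and repair enzymes were counted in 44 genes. With 5-aza in control cells 1 was higher, the repair gene Mgmt (0.32, SE 0.09), and 6 were lower, led by the recombination genes Brca1 (-0.40, SE 0.11) and Brca2 (-0.33, SE 0.08). In Setdb1 hairpin cells 5 were higher and 3 lower. With the Setdb1 hairpin 13 were higher without 5-aza and 27 with it, and 0 were lower in either, with medians of 0.18 and 0.23. These were 29.5% and 61.4% of the list, beside 9.01% and 14.5% of all genes, and the lower calls with 5-aza were 13.6% and 6.82%, beside 5.34% and 7.51%. The higher calls with 5-aza were 2.27% of the list in control and 11.4% in Setdb1 hairpin cells, beside 13.47% and 21.4% of all genes. The replication checkpoint genes Clspn (0.42 and 0.58, SE 0.13 for both) and, with 5-aza, Chek1 (0.61, SE 0.13) had the largest rises, beside the replication clamp gene Pcna (0.40, SE 0.09) without 5-aza. The count of 7 in control cells was 0 without control hairpin replicate B, 1 to 4 without any other 1 library, and 14 (1 higher and 13 lower) with median centring. The 8 in Setdb1 hairpin cells were 5 without Setdb1 hairpin replicate A. The 13 were 4 without control hairpin replicate 1, 6 without control hairpin replicate A, 3 without Setdb1 hairpin replicate 1, 8 with median centring and 1 with replicates A and B only, and the 27 were 17 without Setdb1 hairpin with 5-aza replicate 1 or B.

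Genes of other stress programmes were called lower where they were called with 5-aza. Of 17 genes of the integrated stress response, which can also raise Gdf15, 0 were higher and 1 lower with 5-aza in control cells, and 0 were higher and 10 lower in Setdb1 hairpin cells (median -0.37), where, of the genes called, Aldh1l2 and Nupr1 had the largest falls at -0.95 (SE 0.23) and -0.59 (SE 0.10). Of 16 immediate early genes, 5 were lower with 5-aza in control cells and 4 in Setdb1 hairpin cells, with 0 higher in either. The lower calls with 5-aza in control and Setdb1 hairpin cells were 5.88% and 58.8% of the integrated stress genes and 31.2% and 25% of the immediate early genes, beside 5.34% and 7.51% of all genes. With the pairs as a block, 5 immediate early genes were lower and 2 higher in Setdb1 hairpin cells, and without Setdb1 hairpin with 5-aza replicate B 2 were lower. In control cells the 1 integrated stress call became 0 to 4, and the 5 immediate early calls 3 without control hairpin replicate A, when 1 library was left out. Egr2 fell by 1.15 (SE 0.30) in Setdb1 hairpin cells, and the growth factor gene Ctgf by 0.36 in control and 0.34 in Setdb1 hairpin cells (SE 0.06 for both). With the Setdb1 hairpin the integrated stress genes gave 1 higher and 1 lower call without 5-aza and 1 lower with it, and the immediate early genes 2 lower without 5-aza, Nr4a1 (-0.60, SE 0.14) and Fos (-0.41, SE 0.10), and 2 higher with it. The first pair was 0 without control hairpin replicate 1 or A or Setdb1 hairpin replicate 1, and 1 without Setdb1 hairpin replicate B. The second was 0 with median centring or quantile normalization and when control hairpin with 5-aza replicate A or Setdb1 hairpin with 5-aza replicate B was left out, and 1 without control hairpin with 5-aza replicate B or Setdb1 hairpin with 5-aza replicate 1. The integrated stress calls were 1 without control hairpin replicate 1 or A or Setdb1 hairpin replicate 1 or A, and with 5-aza 2 without control hairpin with 5-aza replicate 1 and 3 without Setdb1 hairpin with 5-aza replicate A. Each integrated stress call with the hairpin was 5.88% of the list. Of all genes, 9.01% were higher and 3.4% lower without 5-aza, and 14.5% were higher and 5.37% lower with it. The immediate early calls with the hairpin were 12.5% of their list, lower without 5-aza and higher with it. In the interaction 0 genes of any of the 5 lists were called, and with the block 1 further p53 target, 2 integrated stress genes and 1 immediate early gene were.

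**Figure D4:**
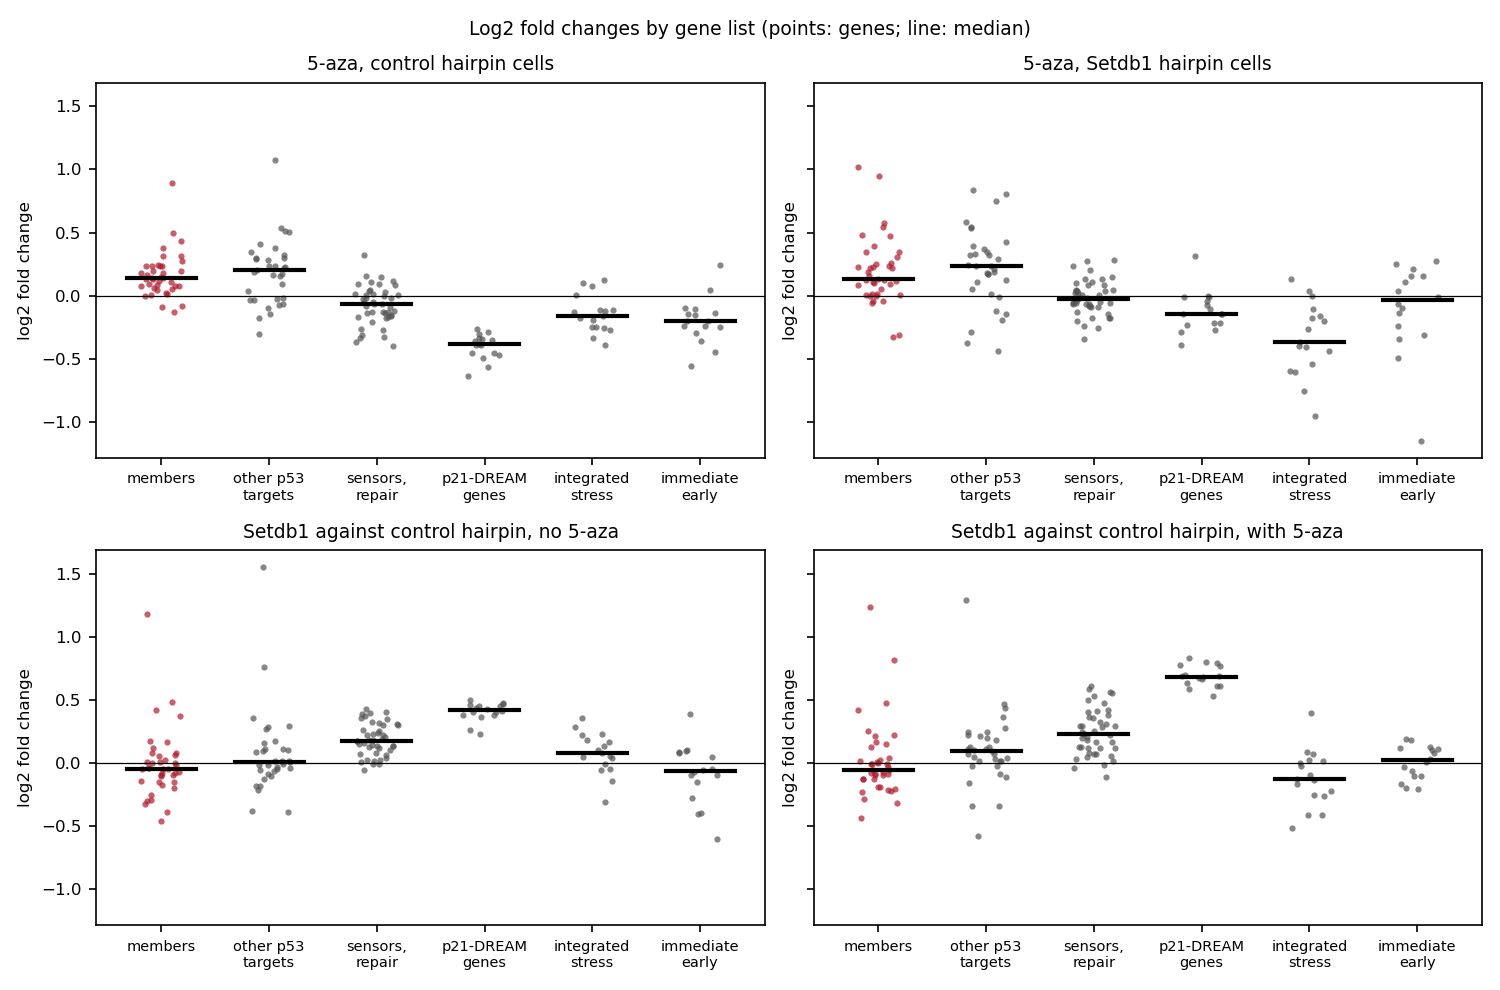
Log2 fold changes (vertical axes) of the members (red) and of 5 other gene lists (grey) in the 4 comparisons, with each point 1 gene and lines at the medians. The medians of the members and other p53 targets lie above 0 with 5-aza. The median of the genes lowered through p21 lies below 0 with 5-aza and above it with the Setdb1 hairpin. Some single genes lie on the other side of 0 with 5-aza.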

How the data were processed

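Poly(A) RNA of the 13 MEF libraries was sequenced as 100-base single-end reads. The authors deposited log2 RPM values for 25965 gene intervals, and how this table was made is not given in the sources used here beyond mm10 and CASAVA 1.4, which the submitters' processing notes name. Once divided by what 1 read is worth, 100% of the values over the lowest one came out whole in each library (tolerance 0.05), and genes without a read held 0.9 read, so reads were recovered for depth and for voom. Depth gives counting precision only, as reads copied by PCR do not count molecules.

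Log2 RPM was fitted with limma 3.58.1 (R 4.3.3; lmFit, contrasts.fit, eBayes with trend) in the 12 hairpin libraries with group as the term, for genes at 1 RPM or more in at least 3 libraries. There were 5 two-sided contrasts, with Benjamini-Hochberg adjustment across every gene in the fit. Scripts were tested on simulated data. RPM per kilobase used exon lengths of a GENCODE annotation of GRCm38. Figures used Python 3.11.15 and matplotlib 3.10.9.

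Members and lists were chosen with earlier results of these data known. Up to 5 called members with the largest change per contrast, and Cdkn1a, Mdm2, Ccng1, Phlda3, Zmat3, Bax and Trp53, are given by library, and up to 2 genes called in each direction for each other list. Library values of Plk2 and Gadd45a were added after values were seen. Windows of 3000 bases each side of the starts were not analysed here. Pairs were libraries with the same hairpin and letter with and without 5-aza. Their deviations from the group means correlated at 0.47, 0.63 and 0.41 in the Setdb1 groups (replicates 1, A and B), over 0.1 in each pair, so these were taken as paired. In the control groups the values were 0.59, 0.15 and 0.0999. The block fit was 1 fit of the 12 hairpin libraries and so held the control pairs too. Of the genes in the other lists, 4 of the p53 targets fell under the filter. A library labelled with 5-aza but without a hairpin name was put in no group. Bases shared with other annotated genes were 23.8% of the exons of Ddb2, 19.1% of Gadd45a and 12.2% of Bax, and strand use in counting is not stated.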

Additional observations from a re-analysis of the deposited data

Results flagged for a closer look

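The library treated with 5-aza and with no named hairpin entered no comparison, and 1 read in it was worth 0.0491 RPM, so it was shallower than the 12 hairpin libraries. Its library name carries PGK, the study's methods speak of a PGK sample for finding variants, and the labels do not say whether it had the same genotype or a hairpin. Setdb1 was at 47.04 RPM in it. With 5-aza, the control hairpin libraries held 42.69 to 43.95 RPM of Setdb1 and the Setdb1 hairpin libraries 10.45 to 14.54 RPM. In this library 13 of the 39 members lay above all 12 hairpin libraries and 5 lay below all of them, beside 19.4% and 20.5% of all genes tested. The members above were Trp53inp1 at 204.9 RPM, Sesn2 at 110.2 RPM, Trp53 at 135.1 RPM, Eda2r at 102.4 RPM, Psrc1 at 69.17 RPM, Apaf1 at 61.86 RPM, Tob1 at 47.24 RPM, Ddit4 at 41.84 RPM, Fbxw7 at 27.18 RPM, Bbc3 at 20.75 RPM, Dgka at 19.62 RPM, Ddb2 at 10.15 RPM and Sesn1 at 9.075 RPM. The members below were Mdm2 at 251.3 RPM, Phlda3 at 112.5 RPM, Polk at 65.69 RPM, Epha2 at 59.75 RPM and Rrm2b at 12.85 RPM. There is 1 such library, and no test was made.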

How the results depend on the processing

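Each of the 4 comparisons of groups was refitted under 16 alternatives, and the interaction under 21. The share of all genes called is not given for these refits, so a changed count of members may follow a change over all genes. With replicate block (libraries paired by hairpin and letter), the 9 members called with 5-aza in control cells became 18, all higher, and the added genes were Mdm2, Bax, Phlda3, Perp, Ei24, Tnfrsf10b, Sesn2, Rrm2b and Ddit4. The pairs in these cells did not all correlate over 0.1. The block gave 21 members with 5-aza in Setdb1 cells and, for the hairpin with replicates paired by letter, 8 without and 11 with 5-aza. By letter the correlations were 0.10, 0.19 and -0.47 without and 0.48, 0.69 and -0.02 with 5-aza, so these share only a letter. Median centring gave 11 with 5-aza in Setdb1 cells. Replicates A and B only gave 3 and 5 members for the hairpin without and with 5-aza. Leaving out 1 library at a time gave 2 to 10 and 6 to 16 members with 5-aza in control and Setdb1 cells, and 3 to 8 and 5 to 9 for the hairpin without and with 5-aza. The interaction gave 0 in every alternative.

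Of the calls, 2 of 9, 6 of 18, 3 of 6 and 4 of 8 were kept in all alternatives in these comparisons in turn, and 0 changed direction. Some log2 fold changes near 0 did. For the hairpin without 5-aza, Mdm2 was at -0.0256 and Bax at -0.0484 with median centring, Bax at -0.0314 with quantile normalization, -0.00288 with voom and -0.0387 with replicates A and B only, and Zmat3 at 0.0299 with replicates A and B only. With 5-aza, Phlda3 was at 0.0221 with replicates A and B only, and Zmat3 at -0.047 with median centring and -0.00115 with quantile normalization. Leaving out 1 library gave -0.0496 to 0.102 for Mdm2, -0.0699 to 0.0445 for Bax and -0.0463 to 0.0282 for Zmat3 without 5-aza, -0.0154 to 0.0571 for Zmat3 and -0.108 to 0.0193 for Phlda3 with it, and -0.0254 to 0.0188 for Trp53 with 5-aza in Setdb1 cells. The cause was not tested. With 3 libraries a group, an exact permutation test of 1 gene cannot go below a p of 0.1.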
